A study of Dugesia japonica with 19 samples.

Results

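The trunk of the planarian Dugesia japonica was followed over 6 time points, days 0, 1, 3, 5, 7 and 10, with 1 m6A-REF-seq library a day. A site is a motif position on 1 strand of an assembled transcript contig, and the sites followed here were those listed in at least 5 of the 6 trunk tables with a median of 20 or more reads. The rule gave 145 of the 2277 sites listed in trunk and of the 5847 listed in all 18 tissue libraries, and the 145 lay on 76 of 1278 trunk contigs. Of the 145, 108 were listed on all 6 days and 37 on 5 days.

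Each trunk library was MazF-treated RNA of trunk pieces, the animals having been divided into head, trunk and tail and the pieces of 10 to 20 animals pooled before extraction. Tail and head libraries of the same 6 days, 1 a day each, were treated the same way and serve here only for comparison. The control was 1 library made by in vitro transcription (IVT) from intact animals, which carries no RNA modification, and every level in every tissue is set against it. The labels call day 0 the start of the course without saying how long after cutting it was taken, and strain and age are not given in the sources used here. There is no second library for any trunk day, so a change with day and a difference between single pools cannot be told apart. The contigs have no gene names in the files, so that neither marker genes of trunk tissue nor gene functions could be read.

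Planarians are flatworms that rebuild missing parts from adult stem cells called neoblasts, and a trunk piece has to make both a new head and a new tail. N6-methyladenosine (m6A) is a methyl mark that a writer complex places on adenosines of messenger RNA, and proteins that read it influence splicing, stability and translation. The bacterial enzyme MazF cuts RNA at ACA motifs that are unmethylated, so the share of reads left uncut at a motif rises with its methylation. The deposited m6A level is the uncut share of the tissue minus the uncut share of the control, which corrects for motifs that MazF cuts poorly.

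The trunk libraries became deeper over the course. Reads at all listed sites lay between 112555 on day 0 and 834034 on day 5, and the median reads at a followed site were 16, 26, 39, 115, 101 and 119 on days 0, 1, 3, 5, 7 and 10. Sites missing from a day were mostly missing early, 21 on day 0 and 10 on day 1, against 1 or 2 on each later day. A table holds no site with a level under 0.101 in trunk, so a site whose uncut share falls near that of the control drops out and has no value. Counting error is given as 95% Wilson intervals where shares of single libraries are compared, and covers counting error only.

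Most followed sites were almost completely uncut in trunk on every day. The mean uncut share over days was at least 0.9 at 114 of the 145 sites, with a median of 0.995, and 46 sites had no cut read in any trunk library. At such a site the level is 1 minus the control's share and cannot vary with day. The other 99 had at least 1 cut read, beside 170 of all 402 trunk sites listed on at least 5 days. All listed trunk shares lay above the control's, so low shares may be missing through the listing itself. The range of the share over days had a median of 0.0192, and exceeded 0.1 at 39 sites, 0.2 at 23 and 0.3 at 12.

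The m6A level, in contrast, spread widely between sites, from 0.103 to 0.968 with a median of 0.336, and 39 sites averaged 0.5 or more. The highest mean level was at position 182 (minus strand) of TRINITY_DN119413_c0_g1_i1, where the uncut share was 1, 1, 0.98, 0.985, 0.975 and 0.98 over the days and the level averaged 0.968. The next were position 1465 (minus) of TRINITY_DN1290_c0_g1_i7 at 0.942, position 388 (plus) of TRINITY_DN79277_c0_g1_i1 at 0.931, position 314 (minus) of TRINITY_DN2841_c0_g1_i3 at 0.869 and position 1363 (plus) of TRINITY_DN4011_c0_g1_i5 at 0.850. All 5 were nearly uncut in trunk on every day and cut in most control reads. At position 388 the control had only 35 reads, 2 of them uncut, beside 315 to 630 control reads at the others.

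The lowest levels also stood at sites with few or no cut reads. They were 0.103 at position 275 (plus) of TRINITY_DN420_c1_g1_i2, 0.105 at position 4847 (plus) of TRINITY_DN678_c0_g2_i4 and 0.116 at position 359 (minus) of TRINITY_DN1827_c0_g1_i1. Position 223 (minus) of TRINITY_DN12227_c0_g1_i1 had 0.119 and position 3831 (minus) of TRINITY_DN180_c0_g1_i11 had 0.12. At these sites the control was itself mostly uncut, which leaves little room for a level. Over the 145 sites the control's uncut share had a median of 0.576, between 0.0101 and 0.897. Control reads per site lay between 3 and 119748, with a median of 69.

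The site average changed little over the course. Over the 108 sites listed on every day, the mean uncut share was 0.930, 0.939, 0.944, 0.946, 0.937 and 0.954 on days 0 to 10, and the mean level was 0.396, 0.405, 0.410, 0.412, 0.403 and 0.420. The lowest day was day 0 and the highest day 10, with day 7 below both of its neighbours. Sites with no cut read numbered 65, 61, 57, 47, 53 and 45 of the 108. The median reads per site, given above, were likewise lower on day 7 than on day 5.

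Single sites followed several kinds of course, and the first is a change with day that passed the test. The uncut and cut reads of each site were fitted against day with edgeR's quasi-likelihood test over all 170 trunk sites that had at least 1 cut read and were listed on at least 5 days. The slope is in log2 odds of being uncut per day. It passed at 4 of the 170 sites (2.35%), 3 higher later (1.76%) and 1 lower later (0.588%). All 4 were among the 99 followed sites tested, and 0 of the other 71 passed. At an unadjusted p under 0.05, 12 of the 99 followed sites were higher later and 4 lower, beside 17 and 5 of all 170. The slope was above 0 at 58 of the 99, with a median of 0.03, beside 103 of all 170 and a median of 0.04.

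Position 1951 on the minus strand of TRINITY_DN1290_c0_g1_i7, a contig of 3433 bases, had uncut shares of 0.552, 0.669, 0.774, 0.909, 0.857 and 0.944 on days 0 to 10. The reads behind them were 971, 827, 1493, 8552, 3917 and 9180, and the control was uncut in 19 of 164 reads (0.116). The share rose at each step but the one to day 7, and the m6A level was 0.436 on day 0 and 0.828 on day 10. The slope was 0.35 (SE 0.0832, edgeR adjusted p = 0.00463). The same position averaged 0.966 ± 0.0217 in tail and 0.320 ± 0.0746 in head (SD, n = 6 days each), so that trunk on day 0 lay between the other tissues and on day 10 near tail.

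Position 243 on the plus strand of TRINITY_DN171911_c1_g1_i1 was uncut in 4 of 14 reads on day 0, 8 of 26 on day 1, 11 of 34 on day 3, 32 of 64 on day 5 and 94 of 117 on day 10, and was not listed on day 7. The shares of 0.286, 0.308, 0.324, 0.5 and 0.803 stayed level to day 3 and were higher on both later days with a value. The fit has no value for day 7, and a share near that of the control would also leave a site unlisted. The control was uncut in 25 of 323 reads (0.0774), and the slope was 0.36 (SE 0.0925, edgeR adjusted p = 0.00822). No read was cut there in tail on any of the 6 days. Without day 10 the trunk slope no longer passed (edgeR adjusted p = 0.418).

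Position 1596 on the minus strand of TRINITY_DN678_c0_g2_i4, a contig of 5705 bases, was uncut at shares of 0.951, 0.959, 0.976, 0.986, 0.993 and 0.996, on 9796 to 58571 reads. The share was higher on every later day than on the day before it. The control was uncut in 43 of 99 reads (0.434). The slope was 0.38 (SE 0.1, edgeR adjusted p = 0.00822).

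The call in the other direction was position 1465 on the minus strand of TRINITY_DN1290_c0_g1_i7. Its shares were 0.994, 0.998, 0.987, 0.974, 0.922 and 0.972, with a control uncut in 19 of 582 reads (0.0326). The log2 odds of being uncut fell by 0.35 per day (SE 0.0923, edgeR adjusted p = 0.00822), with the lowest share on day 7 and a return on day 10. This call was lost without day 0, 1 or 7, with limma, with DESeq2 and at sites of 50 or more reads.

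All 4 calls were lost without day 0, the shallowest library. Without it 0 sites passed with edgeR (11 higher and 3 lower at an unadjusted p under 0.05), and each of the 4 had an adjusted p of 0.1. Their slopes kept their signs when any day was left out, between 0.27 and 0.42 for those that rose and between -0.63 and -0.27 for position 1465. limma on the shares called 0 sites (8 and 6 at an unadjusted p under 0.05), and DESeq2 called 2, which were positions 1951 and 1596.

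**Figure D1:**
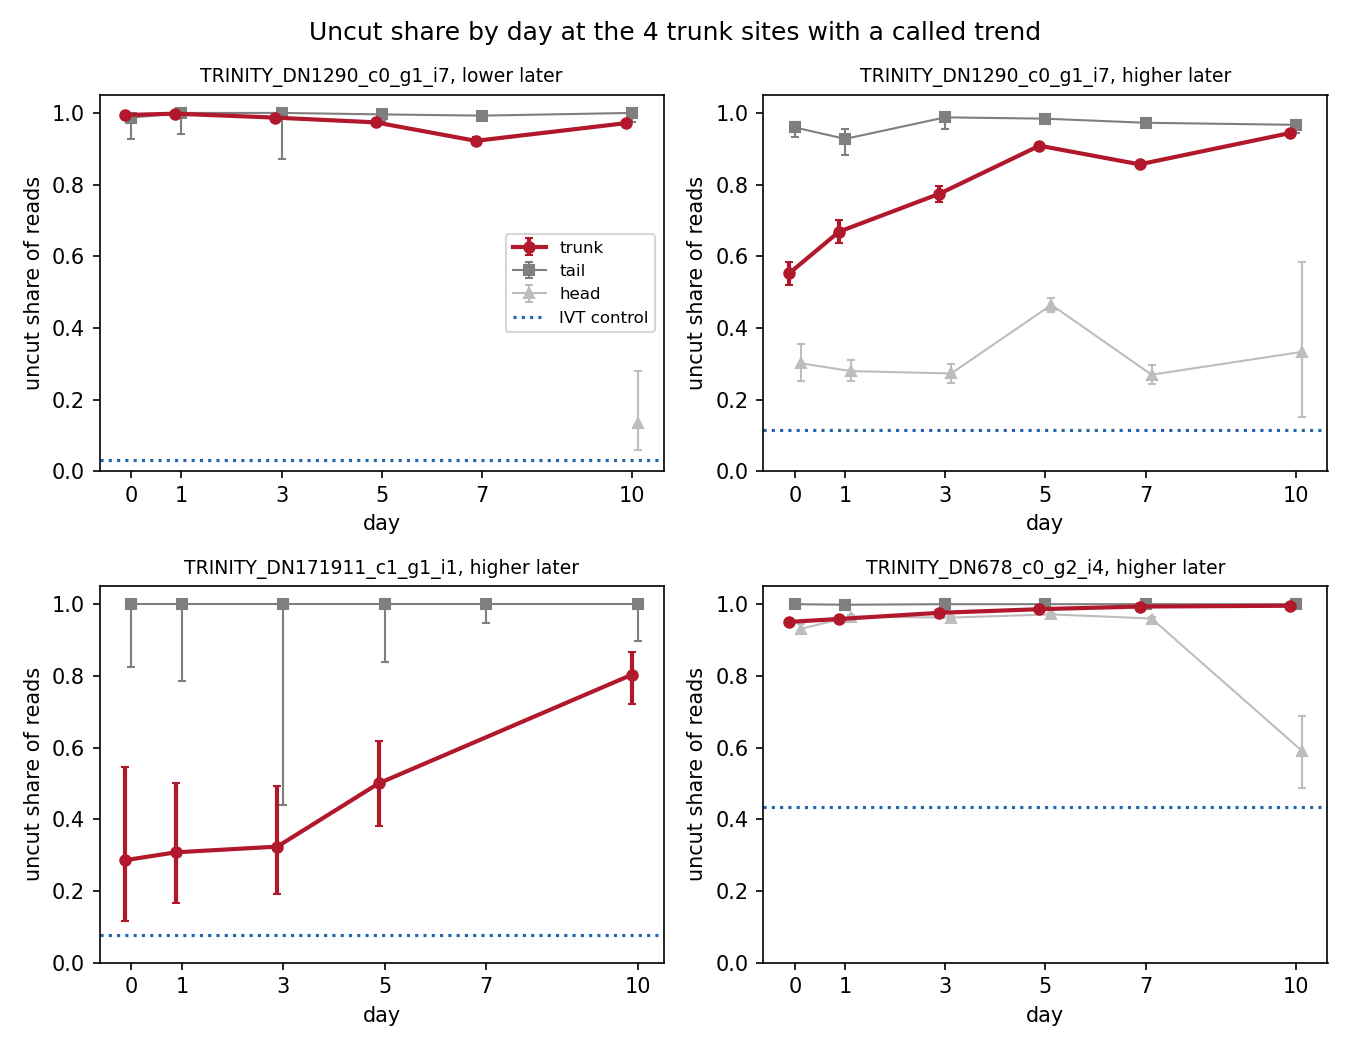
Uncut share of reads (0 to 1) against day at the 4 trunk sites whose slope passed, with 95% Wilson intervals as bars and 1 library per point in trunk, tail and head. The dotted line is the IVT control. Trunk at position 1951 of TRINITY_DN1290_c0_g1_i7 (upper right) has 0.552 on day 0 and 0.944 on day 10, while tail stays near 0.966.

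The second kind of course was a wide range that did not pass. Among sites listed on all 6 days, the widest range was at position 371 (plus) of TRINITY_DN10974_c0_g1_i1, with shares of 0.571, 0.857, 0.909, 0.975, 0.975 and 0.978. The range was 0.406. The share never fell from one day to the next, but the early shares rest on 7 reads each (edgeR adjusted p = 0.0566). Position 745 (minus) of TRINITY_DN11867_c10_g1_i1 had 0.5 on 6 reads on day 0, then 0.9, 0.698, 0.866, 0.882 and 0.855.

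Position 339 (minus) of TRINITY_DN155747_c0_g1_i1 had shares of 0.202, 0.313, 0.513, 0.555, 0.418 and 0.552, on 84 to 890 reads. Days 0 and 1 lay below every later day, yet the slope did not pass (edgeR adjusted p = 0.279). Position 3538 (minus) of TRINITY_DN678_c0_g2_i4 had 0.481, 0.647, 0.772, 0.712, 0.802 and 0.552 on 2620 to 37184 reads. It was lowest at both ends of the course and highest on day 7, a shape that a straight slope does not describe (edgeR adjusted p = 0.922).

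The third kind was a dip on day 7. It was noticed in the values and then counted over the 31 sites whose mean uncut share was below 0.9, a boundary chosen after the values were seen. These partly cut sites lay on 26 contigs. Over the 19 of them listed on all 6 days the mean share was 0.667, 0.730, 0.747, 0.780, 0.729 and 0.802. Day 0 was the lowest day at 11 sites, day 7 at 6, and days 1 and 3 at 1 each, with ties counted for the earlier day. Day 0 shared the lowest value with day 7 at position 225 (minus) of TRINITY_DN1930_c0_g2_i6. It shared it with day 1 at position 758 (plus) of TRINITY_DN2661_c12_g1_i2. Median reads at these 19 sites were 26, 90, 142, 210, 212 and 276, so the day 0 shares rest on the fewest reads. Day 10 was the highest at 7 of the 19.

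On day 7 the share lay below day 5 at 22 of the 28 partly cut sites listed on days 5, 7 and 10, below day 10 at 23, below both at 19 and above both at 2. Over all 140 followed sites listed on those days, it lay below both at 39 and above both at 14, with the same share on the 3 days at 52 and both median differences at 0. The 28 partly cut sites were on 23 contigs, and their median difference was -0.0553 for day 7 minus day 5 and -0.102 for day 7 minus day 10. Steps between days were also counted over all followed sites with 20 or more reads on both days. By over 0.1, 3 of 51 sites were higher and 1 lower from day 0 to day 1. Higher and lower counts were 6 and 2 of 76 from day 1 to day 3, and 5 and 3 of 107 from day 3 to day 5. From day 5 to day 7, 1 of 141 was higher by over 0.1, and 12 on 11 contigs were lower. From day 7 to day 10, 16 of 141 sites, on 14 contigs, were higher by over 0.1 and 1 was lower. The 12 lower and then 16 higher sites have 11 in common, and both counts rest on the same day 7 library.

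Examples are position 1275 (minus) of TRINITY_DN1290_c0_g1_i7, with 0.809, 0.839, 0.797, 0.780, 0.576 and 0.875 on 1327 to 12006 reads, and position 180 (plus) of TRINITY_DN19986_c0_g1_i8, with 0.939, 0.872, 0.846, 0.845, 0.743 and 0.856. Both examples were picked after their values were seen. In tail, 27 of the same sites had values on the 3 days, and day 7 lay below both neighbours at 5 and above both at 6. In head only 5 had values, with 1 below both and 0 above. At 20 or more reads, tail kept 13 sites, with 1 below both and 4 above both, and head kept 4, with 0 below both and 0 above both. The difference between tissues in this dip was not tested, and whether it belongs to the day or to the 1 library of that day cannot be told apart.

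**Figure D2:**
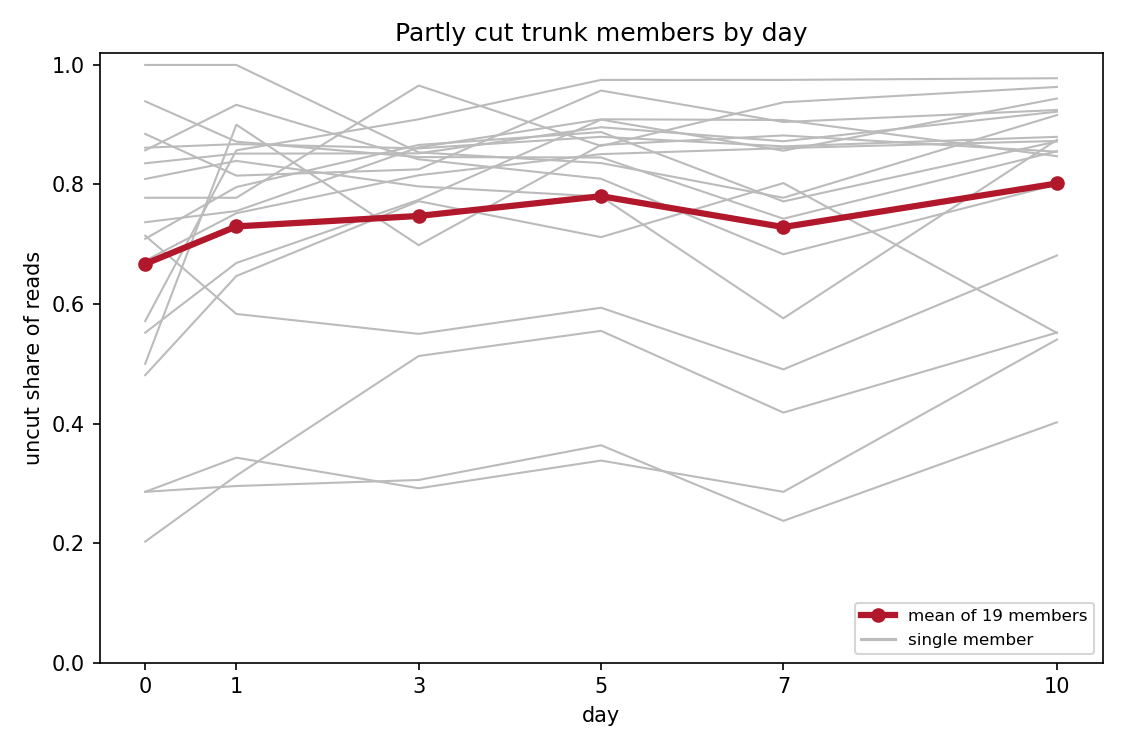
Uncut share of reads (0 to 1) against day for the 19 trunk sites with a mean share under 0.9 that were listed on all 6 days, 1 library a day, each thin line 1 site and the thick line their mean. The mean is 0.667 on day 0, 0.780 on day 5, 0.729 on day 7 and 0.802 on day 10. Median reads per site were 26 on day 0 and 276 on day 10.

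The fourth kind was a partly cut site that stayed level. Position 2022 (minus) of TRINITY_DN1290_c0_g1_i7 had shares of 0.862, 0.868, 0.860, 0.880, 0.864 and 0.880 on 260 to 4591 reads. It was chosen after its values were seen. It lies on the same contig and strand as position 1951, whose share covered 0.552 to 0.944 over the same days.

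The contigs with the most followed sites held slopes on both sides of 0, as did all 170 tested sites, with 103 above 0. TRINITY_DN678_c0_g2_i4 held 17 of the followed sites, 16 of them on the minus strand, with 7 slopes above 0 and 8 below among those with a cut read. Only 1 of these slopes passed, at position 1596. Positions 2266, 2616 and 2967 had 1 cut read each in the whole course. Its 5 most deeply read sites, at positions 2059, 1311, 1596, 1849 and 448, had medians of 28135.5 to 134093 reads. Position 2059 was uncut in nearly every read on every day, while position 1311 had 0.974, 0.986, 0.973, 0.954, 0.941 and 0.960. Position 4212 had 0.925 on 53 reads on day 0 and 0.717 on 99 reads on day 1, and 0.996, 0.994, 0.997 and 0.979 afterwards on 1847 to 17044 reads. It was chosen after its values were seen. Pooled over the 17 sites the uncut share was 0.967, 0.98, 0.979, 0.967, 0.974 and 0.974.

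TRINITY_DN1290_c0_g1_i7 held 11 sites, 10 on the minus strand, with 4 slopes above 0 and 6 below. It carried both a call that was higher later and the one that was lower later. Its pooled share was 0.895, 0.908, 0.905, 0.911, 0.841 and 0.946, lowest on day 7 and highest on day 10. TRINITY_DN180_c0_g1_i11, of 4848 bases, held 7 sites, all on the minus strand, of which 6 had no cut read on any day.

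Contigs with 4 sites each also differed among themselves. On TRINITY_DN155747_c0_g1_i1 position 339 ranged by 0.353 while the site with the narrowest range moved by 0.0222. No site of TRINITY_DN16393_c0_g1_i2 ranged by more than 0.00926, with mean levels of 0.129 to 0.846. On TRINITY_DN4494_c2_g1_i2, 3 of the 4 sites had no cut read.

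**Figure D3:**
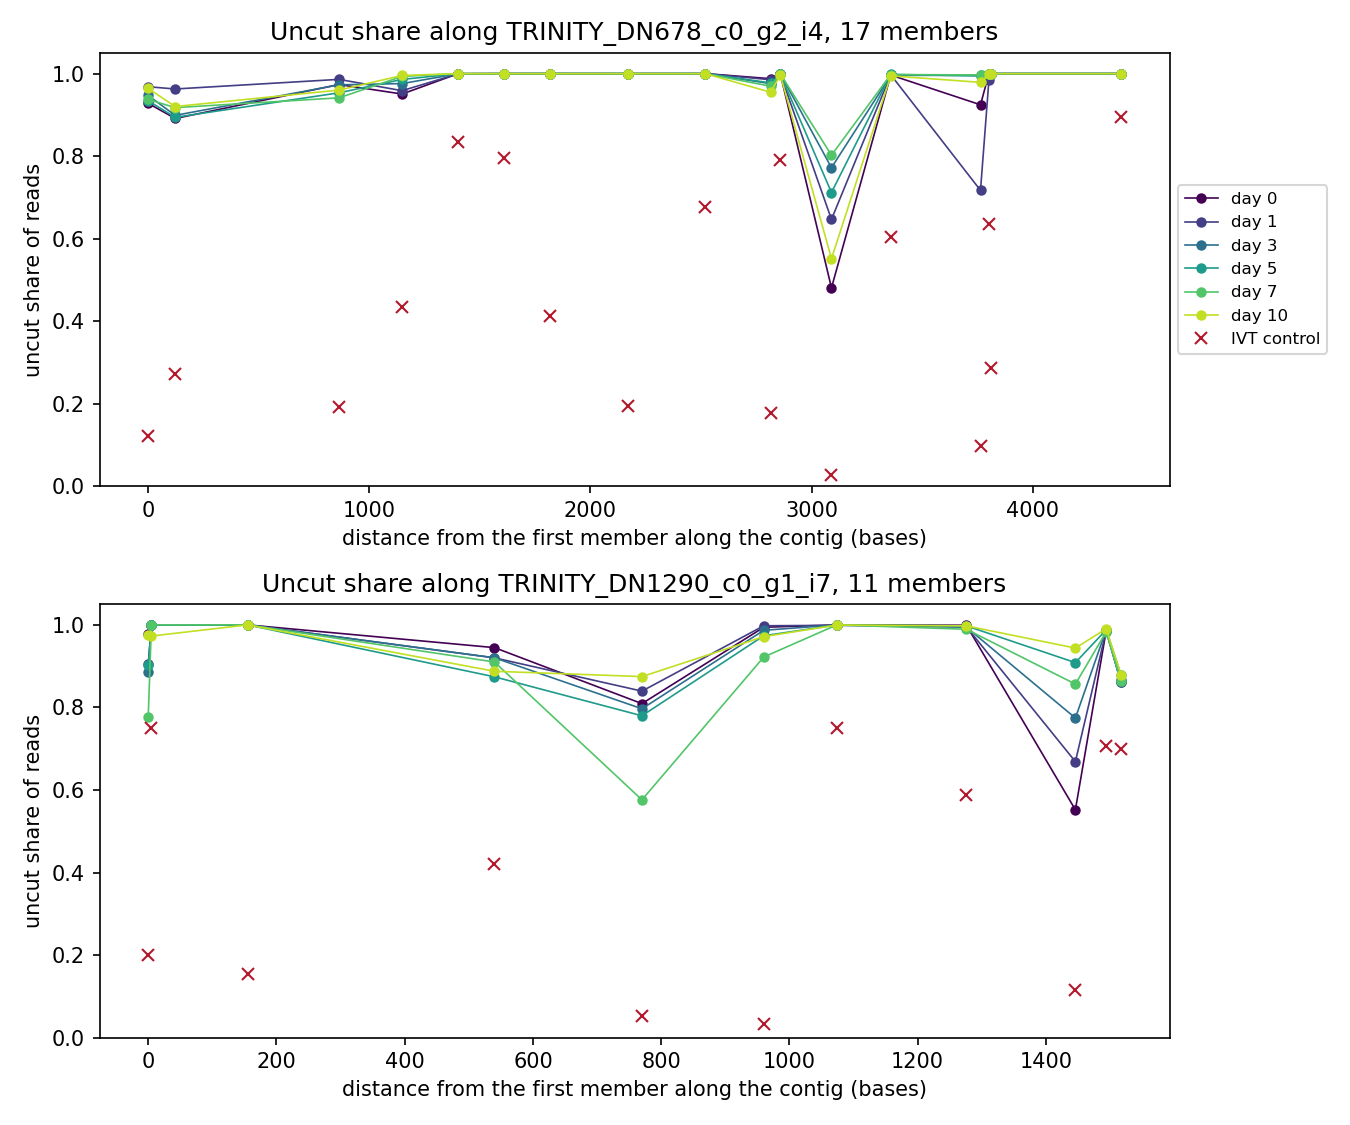
Uncut share of reads (0 to 1) along the 2 contigs with the most followed sites, by distance in bases from the first site, 1 line per trunk day and crosses for the IVT control. On TRINITY_DN678_c0_g2_i4 the days separate most at positions 3538 (0.481 to 0.802) and 4212 (0.717 to 0.997), and on TRINITY_DN1290_c0_g1_i7 at positions 1275 and 1951.

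The reads of each contig were followed next. The 209 trunk sites listed on all 6 days, whatever their reads, lay on 135 contigs, and their reads were summed per contig and day. TRINITY_DN678_c0_g2_i4 took 88.8% ± 1.53 of them (SD, n = 6 days), TRINITY_DN1290_c0_g1_i7 5.49% ± 1.49, TRINITY_DN19986_c0_g1_i8 2.26% ± 0.404, TRINITY_DN155747_c0_g1_i1 1.13% ± 0.391 and TRINITY_DN2841_c0_g1_i3 0.322% ± 0.0941. A share of reads reflects the abundance of the RNA and how many listed motifs it holds, and in pooled pieces fewer cells of a type and less RNA per cell cannot be told apart.

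Over the 108 followed sites listed on every day, TRINITY_DN678_c0_g2_i4 held 87.3%, 88.5%, 90.6%, 87.5%, 90.9% and 89.1% of the reads on days 0 to 10. These shares went up and down between days with no trend that passed. Pearson's r with day was 0.394 (exact permutation p = 0.421) and Spearman's rho 0.6 (exact permutation p = 0.242), both two-sided over 720 orders, and r was 0.324 without days 0 and 10. Over the reads per contig scaled with TMM, its slope was -0.01 on the log2 scale per day (SE 0.0290, edgeR adjusted p = 0.909), so the 2 measures differ in sign and neither passed.

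Of 56 contigs with a median of 20 or more reads, 3 (5.36%) changed with day in reads scaled with TMM by edgeR's quasi-likelihood test. Of these, 1 was higher later (1.79% of the 56) and 2 lower later (3.57%). At an unadjusted p under 0.05, 14 were higher and 5 lower. On plain totals without TMM 7 passed, 5 higher and 2 lower. The percentages of reads below are without TMM, and the slopes are with it. TRINITY_DN3099_c0_g1_i3, summed over 3 sites, held 0.0223%, 0.0263%, 0.0338%, 0.0315%, 0.0672% and 0.0976% of the reads, the highest shares on the last 2 days. Its slope was 0.21 on the log2 scale per day (SE 0.0560, edgeR adjusted p = 0.00737). Summed over sites listed on at least 5 days, the slope was 0.15 and did not pass (edgeR adjusted p = 0.0774).

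TRINITY_DN10090_c0_g1_i9, read at only 1 site, held 0.277%, 0.293%, 0.0667%, 0.108%, 0.0710% and 0.0499%, with days 0 and 1 above every later day. On the log2 scale its reads scaled with TMM fell by 0.26 per day (SE 0.0641, edgeR adjusted p = 0.00281). TRINITY_DN1930_c0_g2_i6, also read at only 1 site and with only 14 to 71 reads a day, held 0.0130%, 0.0209%, 0.0162%, 0.00864%, 0.00438% and 0.00498%. Its reads scaled with TMM fell by 0.22 per day on the log2 scale (SE 0.0728, edgeR adjusted p = 0.0428). With edgeR 0 contigs passed without day 0 (9 higher and 4 lower at an unadjusted p under 0.05) and 0 without day 1 (3 and 4), although the slopes stayed about as large. Without day 0 or day 1 they were 0.23 and 0.20 for TRINITY_DN3099_c0_g1_i3, -0.23 and -0.25 for TRINITY_DN10090_c0_g1_i9 and -0.25 and -0.22 for TRINITY_DN1930_c0_g2_i6. Without day 10 the slope of TRINITY_DN3099_c0_g1_i3 was 0.12 and did not pass (edgeR adjusted p = 0.292). TRINITY_DN1930_c0_g2_i6 was also lost without day 5, 7 or 10, when its slope was -0.22, -0.20 and -0.34 (edgeR adjusted p = 0.0794, 0.0831 and 0.0847), and did not pass in 9 of 13 alternatives.

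**Figure D4:**
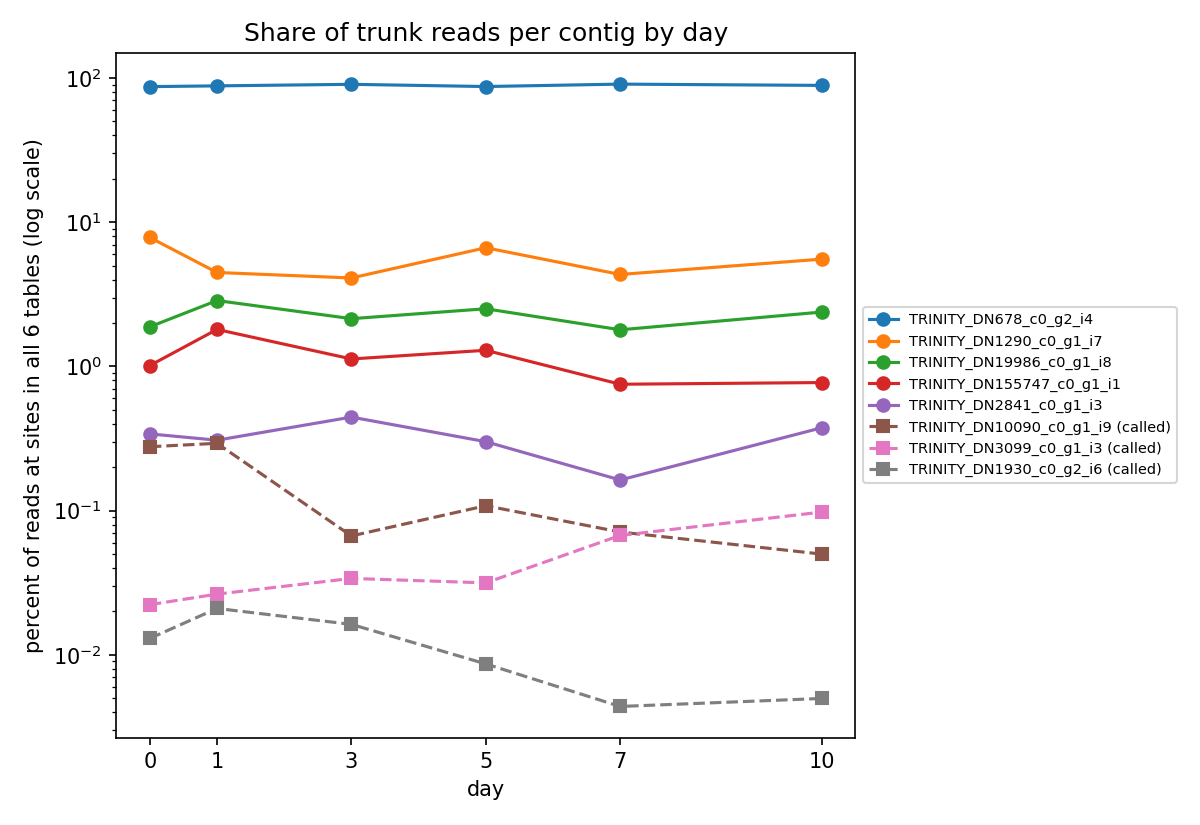
Share of reads per contig (percent, log axis) against day in trunk, 1 library a day. Shown are the contigs with the largest shares and those whose reads, scaled with TMM, passed the test. TRINITY_DN678_c0_g2_i4 stays between 87.2% and 90.7%, while TRINITY_DN3099_c0_g1_i3 ends at 0.0976% and TRINITY_DN10090_c0_g1_i9 at 0.0499%.

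Whether the course in trunk differed from that in the other tissues was tested as a difference of slopes. Between trunk and tail, 0 of 106 sites passed with edgeR (0.0%; 3 higher in trunk and 5 lower at an unadjusted p under 0.05), while limma called 3. At position 1951 of TRINITY_DN1290_c0_g1_i7 the slope in trunk minus that in tail was 0.27 (SE 0.121, edgeR adjusted p = 0.390), and in trunk minus head 0.32 (SE 0.111, edgeR adjusted p = 0.138). The trunk slope there was therefore not shown to differ from either. Both comparisons use the same trunk libraries.

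Between trunk and head, 1 of 93 sites passed with edgeR (1.08%; 6 higher in trunk and 1 lower at an unadjusted p under 0.05). It was position 1596 of TRINITY_DN678_c0_g2_i4, where trunk had the shares given above and head had 0.931, 0.965, 0.963, 0.972, 0.960 and 0.591. The slope in trunk minus that in head was 0.63 (SE 0.144, edgeR adjusted p = 0.00626). The head share of day 10 was 52 of 88 reads, and without day 10 the difference was 0.33 (edgeR adjusted p = 0.360). It did not pass with the libraries of the same day paired either, at 0.64 (edgeR adjusted p = 0.0531).

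Features that the rule did not use are given beside those of the other trunk sites, and the differences were not tested. On the minus strand were 89 of the 145 (61.4%), beside 57.9% of the other 2132 trunk sites. In the direction of the strand on which a site was listed, 27 lay in the first part of the contig when it is divided into 3 equal parts, 72 in the middle and 46 in the last. These are 18.6%, 49.7% and 31.7%, beside 21.4%, 41.1% and 37.5% of the other trunk sites, and the median relative position was 0.535, beside 0.575 for the other trunk sites. Their contigs had a median length of 1467.5 bases, beside 1573 for the others. Of the 76 contigs, 10 held 3 or more followed sites (13.2%), 19 held 2 and 47 held 1, beside 16.3% of the 1250 contigs of the other trunk sites with 3 or more of those. Of 60 pairs of neighbours on the same contig and strand, 25 lay within 100 bases of each other.

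Some neighbours also had the same reads, a pattern counted after it was seen. Positions 2705, 2874, 3368 and 3831 of TRINITY_DN180_c0_g1_i11 each had 4, 7, 12, 48, 39 and 73 reads on days 0 to 10, none of them cut, although the gaps between them are 169, 494 and 463 bases. Positions 2266 and 2616 of TRINITY_DN678_c0_g2_i4 lie 350 bases apart, and their reads differed by at most 0.0462% on any day, with 1 cut read each in the whole course. Of the 60 pairs, 7 on 5 contigs had reads within 2% of each other on every shared day, 4 of them over 100 bases apart, and 5 pairs had identical reads. Neither site had a cut read in all 5 identical pairs, beside 4 of the 53 pairs whose reads differed by more than 2%. Whether the same reads were counted at such sites could not be read from the tables.

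The boundary of 20 reads fell among sites of very different levels. Just inside it were position 275 of TRINITY_DN420_c1_g1_i2 with a median of 20 reads, and position 4847 of TRINITY_DN678_c0_g2_i4 and position 584 (plus) of TRINITY_DN755_c0_g1_i1 with 20.5 each, at mean levels of 0.103, 0.105 and 0.154. Just outside were position 158 (minus) of TRINITY_DN7501_c0_g1_i3 with 19.5 reads, and position 587 (plus) of TRINITY_DN2661_c12_g1_i2 and position 1242 (plus) of TRINITY_DN5683_c0_g3_i5 with 19 each, at mean levels of 0.116, 0.470 and 0.560. In all, 257 of the 402 trunk sites listed on at least 5 days had a median under 20 reads.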

How the data were processed

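Each deposited table holds 1 tissue library beside the IVT control. Per the file headers, a row gives the counts of uncut and of all reads for a motif position and strand, and the fraction of uncut reads. The authors' m6A level matched, within 1e-09, the difference of the library's and the control's fraction. The deposited contig length, an other value, was used for positions only. The control columns carry the letters fto beside IVT and were read as the IVT library. Per the submitters' processing notes, FastQC, fastp 0.20.0 and HISAT2 2.4.2 were used. Settings, counting program, assembly and site filter are not given in the sources used here. Read from the values, no trunk row had under 11 uncut reads in both library and control.

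Reads were fitted with edgeR 4.0.16 (quasi-likelihood, Benjamini-Hochberg threshold 0.05, day as a number). Sites used paired uncut and cut counts, contigs used TMM. Alternatives were limma 3.58.1, DESeq2 1.42.0, other filters and day scales, leaving out each day and, chosen after seeing the data, pairing libraries by day. p-values measure scatter between libraries of pooled animals around a trend. The trend fits of sites and contigs and the fit paired by day were tried on simulated data. The unpaired fits of slope differences were not. The simulations set the same extra spread at every site, or at every contig, and their outcomes are not given here. The text names sites and contigs past a test, the 5 with the widest range, highest or lowest level or most reads, the 5 contigs with most reads, up to 6 contigs with 3 or more sites, and 3 sites each side of the read boundary. Others are said to be chosen later. Members and lists were chosen with earlier results of these data known.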

Additional observations from a re-analysis of the deposited data

Results flagged for a closer look

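The slope of the uncut share with day at position 1596 (minus strand) of TRINITY_DN678_c0_g2_i4 was tested between tissues and differed, at 0.63 log2 odds per day for trunk minus head (SE 0.144, edgeR adjusted p = 0.00626). The head value of day 10, 52 of 88 reads uncut (95% Wilson interval 0.486 to 0.688), stands beside 55964 of 56211 in trunk on that day, and the other 5 head days lay between 0.931 and 0.972. Without day 10 in both tissues the difference was 0.33 (edgeR adjusted p = 0.360), with the day as a replicate block it was 0.64 (edgeR adjusted p = 0.0531), and over all leave-one-out fits it lay between 0.33 and 0.77 with adjusted p between 0.000217 and 0.360.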

How the results depend on the processing

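The 4 sites whose uncut share changed with day became 0 with limma, 2 with DESeq2 and 2 at a median of 50 or more reads, and 0 to 5 when each day was left out. The 3 contigs became 6 with DESeq2 (2 higher and 4 lower), 7 with plain totals (5 higher and 2 lower) and 0 to 8 when each day was left out, 0 of them without day 0 or day 1 and 8 without day 3. Slopes that differed between trunk and tail numbered 0, but 3 with limma and 1 at 20 or more reads in both tissues, and 0 to 1 when each day was left out. Between trunk and head 1 became 5 with limma, none of them the same site, and 0 to 2 when each day was left out. No direction turned at the 4 sites, 3 contigs and 1 slope difference that passed, under the alternatives run for each. Other named sites were not followed through the alternatives. The correlation of the share of TRINITY_DN678_c0_g2_i4 with day had an exact permutation p above 0.05 in every alternative run, with r between 0.140 and 0.577 when each day was left out. The causes of these changes were not tested. Depth was lowest on the early days, with median reads at a followed site of 16 on day 0 and 119 on day 10. Over all days, 104 of the 833 listed values rest on under 11 uncut trunk reads, and 26 sites have under 11 uncut reads in the control. With the day as a replicate block, a paired fit added after seeing the data, 0 slopes differed between trunk and tail and 3 between trunk and head, none of them the site called without it, whose difference was 0.64 (edgeR adjusted p = 0.0531). The labels do not say that pieces of the same day came from the same animals. The deviations of same-day libraries correlated across sites at -0.149 to 0.378 for trunk with tail (45 to 49 sites) and -0.102 to 0.575 for trunk with head (37 to 46 sites), so not every day showed pairing.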

Other observations

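Most of the 145 sites were also listed in other tissues. Tail listed 136 of them on at least 1 day and head 104 of them, and 32 were listed in all 18 libraries. On 5 or more days tail listed 105 and head 66. Neither tail nor head listed 6 sites, among them position 388 of TRINITY_DN79277_c0_g1_i1, which had 1 cut read of 14 on day 0 and none later. At position 110 (plus) of TRINITY_DN19986_c0_g1_i8, chosen after its values were seen, the share was 0.672, 0.752, 0.815, 0.851, 0.861 and 0.873 on 58 to 382 reads, higher on each day than on the one before, and its slope did not pass (edgeR adjusted p = 0.340).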
